A study of Mus musculus with 12 samples.

Results

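The transcripts described here encode 7 amino acid transporter subunits, Slc3a2, Slc7a5, Slc7a8, Slc7a6, Slc7a7, Slc7a11 and Slc7a1. They carry cationic amino acids, large neutral amino acids (system L) and cystine across the plasma membrane of mouse granulocyte-monocyte progenitors. They were picked by name, as the 7 genes with these symbols among 37583 genes in the count files, and all 7 had enough reads to be tested. Earlier results of these data were known when they were chosen. RNA was sequenced from 6 Taz knockout clones, named 3G to 3I and 4J to 4L, and 6 wildtype clones, named 1A to 1C and 2D to 2F. Taz encodes tafazzin, an X-linked acyltransferase that remodels cardiolipin, the signature phospholipid of the inner mitochondrial membrane. The study's question was how gene expression differs between tafazzin-deficient and wildtype progenitors.

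Every clone of both genotypes came from fetal liver of C57BL/6 embryos at embryonic day 15.5. Each carries a retroviral ER-Hoxb8 fusion, a transcription factor that blocks maturation while estradiol is present. All were grown with 0.5 µM estradiol, 10% fetal bovine serum and medium conditioned to about 50 ng/ml stem cell factor, and total RNA was taken from these cultures. The labels name no treatment and do not describe the knockout allele. Each library is a line grown from a single cell, so each value is that of a single clone. The number in a clone's title (3 and 4 in Taz knockout, 1 and 2 in wildtype) is not explained in the labels. Should clones with the same number derive from the same animal or founder culture, the 12 clones would hold fewer independent samples and the p-values would be too low.

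Slc3a2 is the heavy chain of the CD98 complex, a single-pass glycoprotein that holds no transport activity itself. It binds a light chain by a disulfide bond and takes it to the cell surface. Slc7a5 (LAT1) and Slc7a8 (LAT2) are its system L light chains, which exchange large neutral amino acids such as leucine and phenylalanine for amino acids from inside the cell. Slc7a6 and Slc7a7 (y+LAT2 and y+LAT1) exchange arginine and lysine for neutral amino acids and sodium, and SLC7A7 is mutated in human lysinuric protein intolerance. Slc7a11 (xCT) imports cystine in exchange for glutamate and so supplies cysteine for glutathione. Slc7a1 (CAT1) carries arginine, lysine and ornithine without a heavy chain, and in mouse it is also the receptor of ecotropic murine leukemia viruses. Several of these genes are known targets of Atf4, the transcription factor of the integrated stress response, which binds C/EBP-ATF response elements.

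Promoter windows, from 250 bases before to 50 after an annotated start, are shown for 4 members whose levels are set against each other later on. They were read from RefSeq on GRCm38.p6, whereas the deposited counts were made on mm9, and 6 of the 7 members had at least 1 window. The C/EBP-ATF response element was searched as TGATGNAA on both strands, and capitals mark its matches. The Slc7a11 window (chr3:50443564-50443863, minus strand) holds TGATGCAA from position -66 and, read on the other strand, TTGCATCA from -47. The first of the Slc7a7 windows (chr14:54417895-54418194, minus strand) holds TGATGAAA from -141 and TGATGCAA from -1. The Slc3a2 window (chr19:8713848-8714147, minus strand) and the Slc7a8 window (chr14:54781837-54782136, minus strand) hold none. Both Slc7a1 windows, both Slc7a6 windows and 3 of the 5 Slc7a7 windows also lack it. Of 32817 windows of the same length, 3.97% hold the element, and a match is a description of letters, not a shown binding site.
Slc7a11: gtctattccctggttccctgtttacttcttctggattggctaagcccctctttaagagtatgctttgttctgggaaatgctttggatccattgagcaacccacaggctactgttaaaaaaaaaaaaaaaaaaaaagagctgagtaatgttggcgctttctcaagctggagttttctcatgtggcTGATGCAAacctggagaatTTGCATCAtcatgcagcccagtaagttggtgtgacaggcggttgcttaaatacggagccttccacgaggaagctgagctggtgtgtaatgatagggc
Slc7a7: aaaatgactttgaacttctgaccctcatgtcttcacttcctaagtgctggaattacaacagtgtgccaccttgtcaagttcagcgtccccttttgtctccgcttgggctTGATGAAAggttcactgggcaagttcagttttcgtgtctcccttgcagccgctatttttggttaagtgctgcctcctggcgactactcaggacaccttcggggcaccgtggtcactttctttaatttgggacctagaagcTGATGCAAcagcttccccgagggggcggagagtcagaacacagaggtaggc
Slc3a2: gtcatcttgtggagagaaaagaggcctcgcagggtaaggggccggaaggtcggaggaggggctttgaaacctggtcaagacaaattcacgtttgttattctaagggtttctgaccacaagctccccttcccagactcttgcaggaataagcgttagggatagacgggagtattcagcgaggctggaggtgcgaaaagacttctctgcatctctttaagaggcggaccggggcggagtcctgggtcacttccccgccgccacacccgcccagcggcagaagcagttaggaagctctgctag
Slc7a8: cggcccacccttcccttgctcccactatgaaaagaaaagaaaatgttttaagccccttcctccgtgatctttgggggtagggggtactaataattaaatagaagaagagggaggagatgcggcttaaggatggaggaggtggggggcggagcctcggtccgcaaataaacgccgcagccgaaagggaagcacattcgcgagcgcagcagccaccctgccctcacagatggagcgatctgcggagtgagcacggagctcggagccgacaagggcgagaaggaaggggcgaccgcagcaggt
The antioxidant response element, searched as TGACNNNGC on both strands, was in 12.4% of windows. Among the members it matched as TGACGTGGC in Slc7a6 on chromosome 8 and as GCGCTGTCA in the first window of Slc7a1 on chromosome 5. The E-box CACGTG, found in 7.15% of windows, matched in no member window.

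Libraries held between 18970252 and 23658158 counts in genes for Taz knockout and between 21966954 and 27431544 for wildtype. A count of 3 in these libraries corresponds to between 0.109 and 0.158 CPM, the standard unit in which each count is scaled to a fixed library total. Taz itself lay between 2.21 and 4.08 CPM in the knockout clones and between 37.1 and 43.9 CPM in the wildtype clones, as labelled. All 8 markers of granulocyte-monocyte progenitors were expressed, with summed levels from 4127 to 5046 CPM in Taz knockout and from 3702 to 4971 CPM in wildtype. Summed markers of mature neutrophils reached 145 CPM at most in Taz knockout clones and 1538 CPM in wildtype clone 2D. B lymphoid markers summed to between 6.08 and 28.6 CPM in Taz knockout and to between 32.8 and 85.9 CPM in wildtype, with no overlap, and Pax5 was never above 3 counts. In bulk RNA, fewer cells of a type and less RNA per cell cannot be told apart. Their part in the results that follow was not tested.

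Of the 7 transporters, 5 were higher in Taz knockout clones and none was lower, at an adjusted p under 0.05 in edgeR's quasi-likelihood test over 11819 genes. Leaving out 1 clone at a time, 3 or 4 were higher, as Slc7a8 and Slc7a11 were each lost in 9 of 12 fits. The 5 were the heavy chain Slc3a2, both system L light chains, the cystine transporter Slc7a11 and the cationic transporter Slc7a1. Among all genes tested, 3.99% were called higher and 3.94% lower. The count of members lower was also 0 with DESeq2, and 0 members were lower at an unadjusted p under 0.05. The median log2 fold change was 0.73 over the 7 transporters and -0.0066 over all genes tested. The 7 were chosen with earlier results of these data known, so this contrast is a description and not independent evidence. Each p-value weighs the difference between genotypes against the spread between clones, taking the clones as independent.

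**Figure D1:**
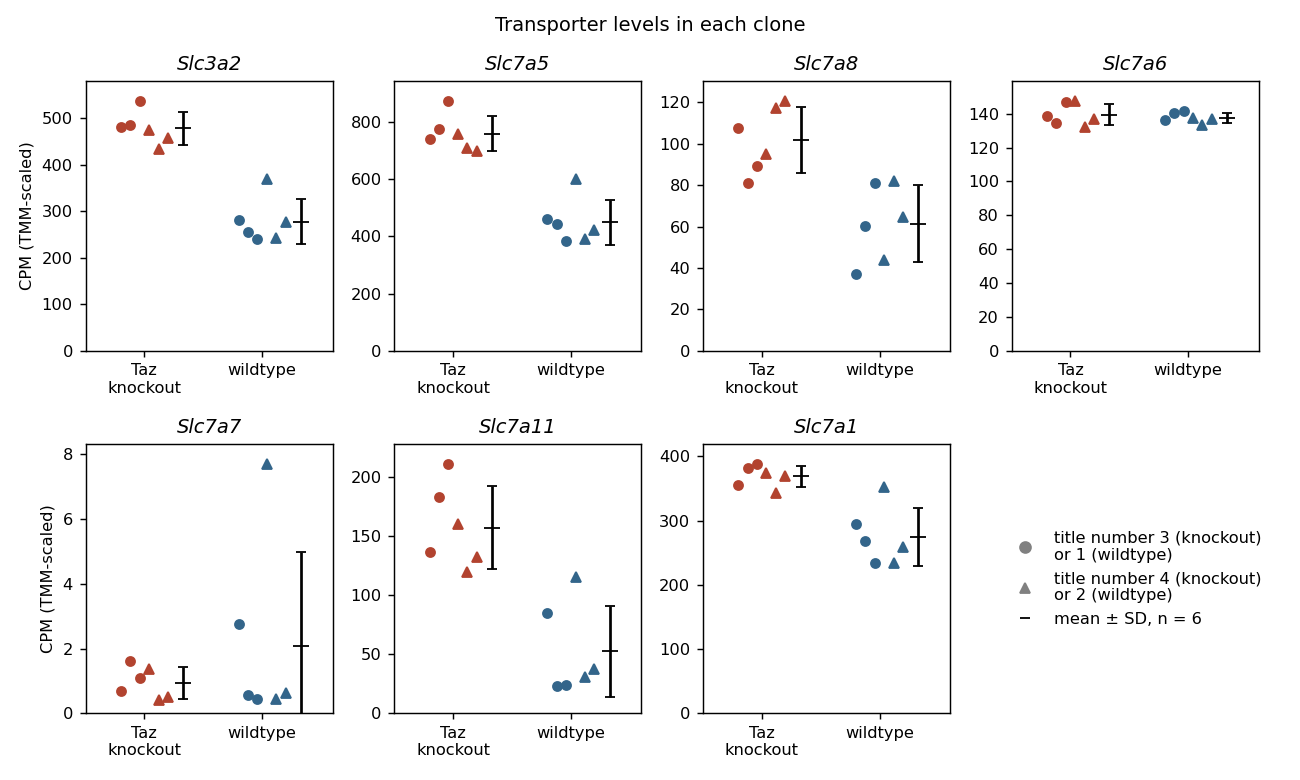
Level of each transporter in CPM (vertical axes, each from 0) in the 6 Taz knockout clones (red, left) and the 6 wildtype clones (blue, right), with mean ± SD beside the points and the title number as point shape. Every knockout clone lies above every wildtype clone for Slc3a2, Slc7a5 and Slc7a11, while the genotypes overlap for Slc7a8, Slc7a6, Slc7a7 and Slc7a1.

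The heavy chain Slc3a2 (chromosome 19) ranged from 434 over a median of 479 to 538 CPM in Taz knockout clones, and from 241 over a median of 266 to 370 CPM in wildtype clones. All knockout clones lay above all wildtype clones, as did those of 2.54% of all genes tested. Its mean was 479 ± 34.8 CPM in Taz knockout and 278 ± 48.1 CPM in wildtype (SD, n = 6 each). The fold was 1.72 (95% interval 1.48 to 2.00), a log2 fold change of 0.78 ± 0.099 (SE) with an adjusted p of 0.00100 in edgeR's quasi-likelihood test. The highest wildtype clone was 2D.

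Slc7a5 (chromosome 8), the main leucine exchanger of dividing cells, ranged from 700.1 over 749 to 873 CPM in Taz knockout clones, and from 385 over 433 to 599.9 CPM in wildtype clones, again without overlap. Means were 759.5 ± 62.5 CPM in Taz knockout and 450.1 ± 78.7 CPM in wildtype (SD, n = 6 each). The fold of 1.69 (95% interval 1.45 to 1.97) was close to that of Slc3a2, with a log2 fold change of 0.75 ± 0.10 (SE) and an adjusted p of 0.00146 in edgeR. Slc3a2 and Slc7a5 kept an adjusted p under 0.05 in each of 12 fits that left out 1 clone.

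The second system L light chain, Slc7a8 (chromosome 14), lay between 80.9 and 121 CPM with a median of 101.5 in Taz knockout clones, and between 37.0 and 82.1 CPM with a median of 62.4 in wildtype clones. The genotypes overlapped, since knockout clone 3H fell below wildtype clones 1C and 2E. Means of 101.9 ± 16.0 CPM in Taz knockout and 61.5 ± 18.6 CPM in wildtype (SD, n = 6 each) gave a fold of 1.66 (95% interval 1.24 to 2.22). The log2 fold change was 0.73 ± 0.19 (SE), with an adjusted p of 0.0396 in edgeR. This call sat near the threshold. Without 1A, 1B, 2D, 2F, 3G, 3I, 4J, 4K or 4L it was lost, with log2 fold changes from 0.62 to 0.76 and adjusted p from 0.0551 to 0.0777 in edgeR, and without 1C, 2E or 3H it held.

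Slc7a11 (chromosome 3) had the largest log2 fold change of the 7. It ranged from 120 over 149 to 212 CPM in Taz knockout clones, and from 22.8 over 34.1 to 115 CPM in wildtype clones, without overlap. Wildtype clones 1A (85.4 CPM) and 2D (115 CPM) stood well above the other wildtype clones, which lay at 37.7 CPM or below. Means were 157 ± 34.8 CPM in Taz knockout and 52.6 ± 38.5 CPM in wildtype (SD, n = 6 each). The fold was 2.99 with a wide 95% interval of 1.63 to 5.5, and the log2 fold change of 1.58 ± 0.40 (SE) had an adjusted p of 0.0343 in edgeR. Of all genes tested, 0.711% had a log2 fold change at least as large in this direction. Genes lower in Taz knockout are not in that share.

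The Slc7a11 call also sat near the threshold, and leaving out 1 clone of either genotype lost it in 9 of 12 fits. Without 1B, 1C, 2E, 2F, 3G, 3H, 3I, 4J or 4L the adjusted p in edgeR lay between 0.0511 and 0.0743, at log2 fold changes from 1.42 to 1.63. Without 1A, 2D or 4K it was called. With 1A and 2D both left out, a choice made after the values were seen, the log2 fold change of Slc7a11 was 2.46 with an adjusted p of 0.000214 in edgeR, and that of Slc7a8 was 0.50 with an adjusted p of 0.0448. Those clones had the lowest summed progenitor markers of all 12 libraries, at 3780 CPM in 1A and 3702 CPM in 2D.

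The cationic transporter Slc7a1 (chromosome 5) had the smallest log2 fold change of the 5 that rose. Taz knockout clones lay between 343 and 388 CPM with a median of 372, and wildtype clones between 235 and 353 CPM with a median of 264. Only wildtype clone 2D reached into the knockout range. Means were 369 ± 16.9 CPM in Taz knockout and 274 ± 44.7 CPM in wildtype (SD, n = 6 each), a fold of 1.34 (95% interval 1.17 to 1.54). Its log2 fold change of 0.43 ± 0.091 (SE) had an adjusted p of 0.0152 in edgeR and passed the threshold in each of the 12 fits without 1 clone.

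The y+L light chains did not pass the test. Slc7a6 (chromosome 8) was almost level across the clones, from 132 to 148 CPM with a median of 138 in Taz knockout and from 134 to 142 CPM with a median of 137 in wildtype. Its log2 fold change of 0.019 ± 0.032 (SE) had a 95% interval from -0.051 to 0.089 and an adjusted p of 0.775 in edgeR, so the fold lay between 0.965 and 1.06 at this confidence. The narrow interval sets Slc7a6 apart from Slc7a7, for which the data leave a wide range.

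Slc7a7 (chromosome 14) rested on few reads, with 9 to 32 counts per Taz knockout library and 10 to 178 per wildtype library. It lay between 0.422 and 1.63 CPM with a median of 0.894 in Taz knockout clones and between 0.443 and 7.71 CPM with a median of 0.602 in wildtype clones. Wildtype clones 2D (7.71 CPM) and 1A (2.76 CPM) held the highest values. The log2 fold change was -1.13 ± 0.75 (SE), with a 95% interval from -2.78 to 0.51 and an adjusted p of 0.402 in edgeR. It was -0.035 without 2D, and 0.85 (adjusted p = 0.220 in edgeR) without 1A and 2D. Exons of Slc7a7 share 232 bases with Oxa1l on the opposite strand in the GENCODE M21 annotation, and the reads were counted without strand. Of its 5 promoter windows, 2 carry a match to the C/EBP-ATF element and 3 do not. Those 2 windows overlap and share the same TGATGCAA site.

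**Figure D2:**
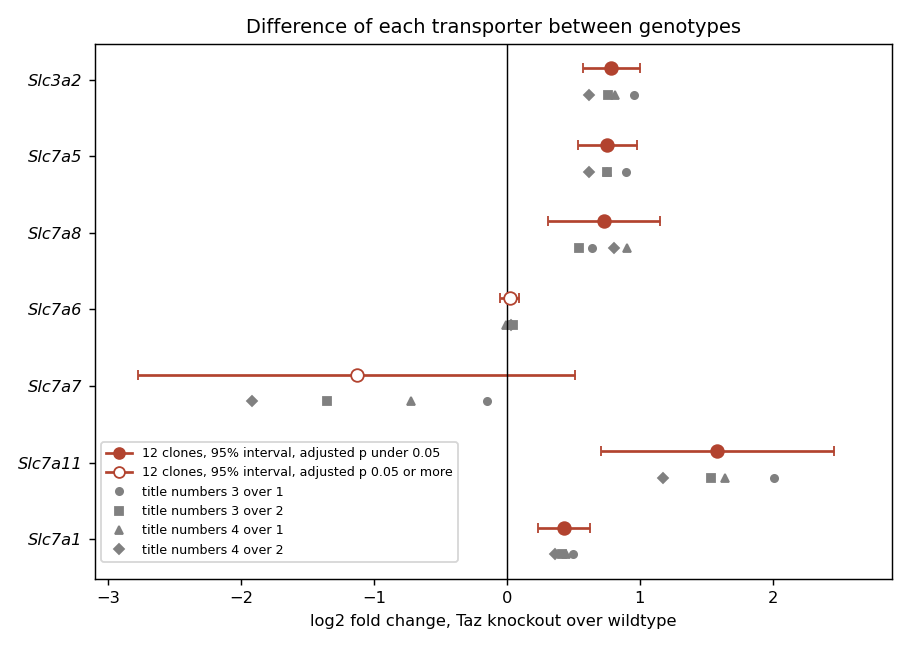
Log2 fold change of each transporter, Taz knockout over wildtype (horizontal axis), with the 95% interval over 12 clones in red (filled where the adjusted p was under 0.05) and the values for each pair of title numbers in gray. All 4 pairs lie above 0 for the 5 transporters that were called, and they scatter widely for Slc7a7.

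Set against gene length, the transporters kept the same broad order in both genotypes. Slc7a5 stood at 205 ± 16.8 CPM per kilobase of exon in Taz knockout and 121 ± 21.2 in wildtype (SD, n = 6 each), and its heavy chain Slc3a2 followed at 136 ± 9.87 in Taz knockout and 78.8 ± 13.6 in wildtype. Both were above every other member in all clones. In Taz knockout the order went on with Slc7a1 (32.0), Slc7a6 (30.5), Slc7a8 (20.4), Slc7a11 (11.3) and Slc7a7 (0.287 CPM per kilobase), each above the next in 6 of 6 clones. In wildtype Slc7a6 (30.1) came before Slc7a1 (23.8) in 5 of 6 clones, ahead of Slc7a8 (12.3), Slc7a11 (3.78) and Slc7a7 (0.632 CPM per kilobase). The wildtype levels of Slc7a6 and Slc7a1 therefore overlapped, and they changed places when the longest transcript served as length. With that length, Slc7a8 lay above Slc7a11 in 4 of 6 clones of each genotype.

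Because the light chains need Slc3a2, each was also set against the Slc3a2 count of its own clone, which cancels library size. No test was run on these ratios. Slc3a2 is the divisor and did not itself overlap between genotypes. A gene level between genotypes therefore has a lower ratio in Taz knockout without a change of its own. How many of all genes have ratios without overlap was not counted. The count ratio of Slc7a5 to Slc3a2 was 1.59 ± 0.045 in Taz knockout and 1.62 ± 0.067 in wildtype (SD, n = 6 each), with full overlap, so heavy chain and main light chain stood in nearly the same proportion in all 12 clones. That of Slc7a8 was 0.215 ± 0.046 in Taz knockout and 0.232 ± 0.095 in wildtype, also overlapping. Slc7a6, which was level between genotypes, had a ratio of 0.292 ± 0.016 in Taz knockout and 0.506 ± 0.077 in wildtype, with every knockout clone below every wildtype clone. The ratio of Slc7a1, which uses no heavy chain, was 0.772 ± 0.034 in Taz knockout and 0.987 ± 0.051 in wildtype, again without overlap. The ratio of Slc7a11 was 0.326 ± 0.051 in Taz knockout and 0.178 ± 0.10 in wildtype, and wildtype clones 1A (0.303) and 2D (0.312) lay within the knockout range. For Slc7a7 it was 0.00216 ± 0.00096 in Taz knockout and 0.00677 ± 0.0077 in wildtype, with overlap.

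**Figure D3:**
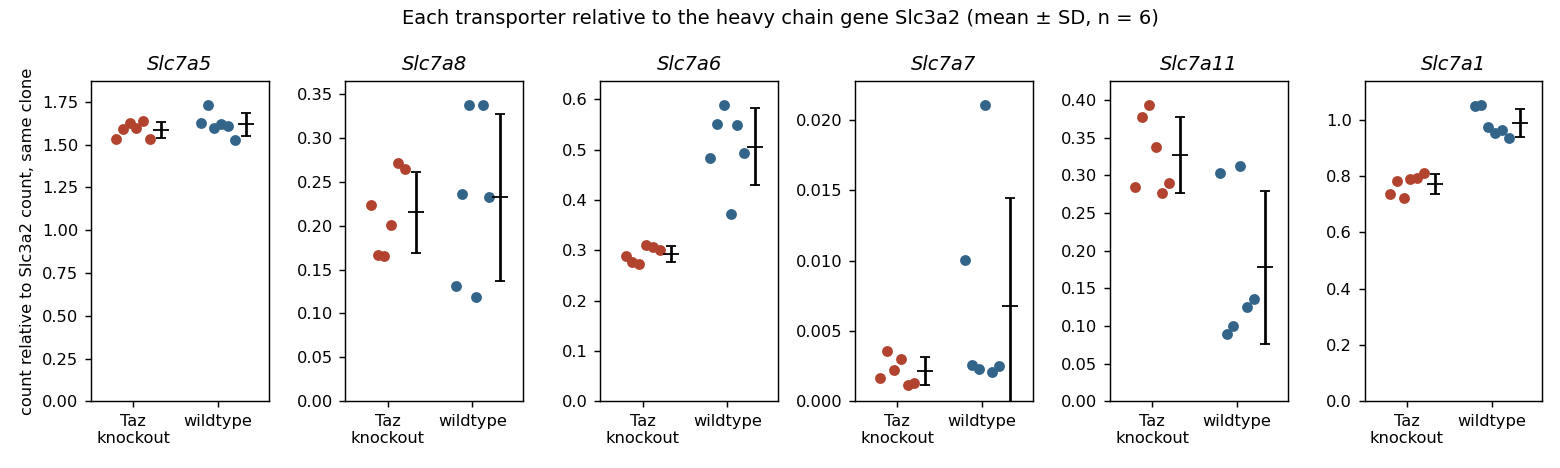
Count of each transporter divided by the Slc3a2 count of the same clone (vertical axes, each from 0) in Taz knockout (red, left) and wildtype (blue, right) clones, with mean ± SD, n = 6. The Slc7a5 ratio lies near 1.6 in both genotypes, and those of Slc7a6 and Slc7a1 are lower in every knockout clone.

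The 2 title numbers of each genotype were also compared in a model with 4 groups of 3 clones. These 4 contrasts share libraries and are not independent. Slc3a2 was higher at an adjusted p of 0.0112 for number 3 over 1, 0.0395 for 3 over 2 and 0.0308 for 4 over 1 in edgeR, and had an adjusted p of 0.0993 for 4 over 2. Slc7a5 was called for 3 over 1 (adjusted p = 0.0222 in edgeR) and had adjusted p of 0.0527, 0.0620 and 0.116 in the other pairs. The other 5 members were called in no pair. The share of all genes called higher was 0.99% for 3 over 1, 0.423% for 3 over 2, 0.33% for 4 over 1 and 0.169% for 4 over 2. Of the 17 genes called higher in all 4 pairs, 0 were members.

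Across the 4 pairs the log2 fold change lay above 0 for each of the 5 transporters called over all clones. It lay between 0.62 and 0.95 for Slc3a2, between 0.62 and 0.89 for Slc7a5, between 0.54 and 0.90 for Slc7a8, between 0.36 and 0.49 for Slc7a1 and between 1.17 and 2.01 for Slc7a11. Within a genotype, no member was called for number 4 over 3 in Taz knockout or for 2 over 1 in wildtype, and neither was any gene tested (0% in each). Of 11819 genes tested, 244 had an unadjusted p under 0.05 in edgeR between the knockout numbers and 416 between the wildtype numbers. Both are smaller shares than the 0.05 that chance alone gives at this threshold. Limma-voom also called 0 in both.

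The clones also varied within each genotype, and the transporters varied together. After each gene's genotype mean was subtracted from log2 CPM, Slc3a2 and Slc7a5 followed each other over the 12 clones with a Pearson r of 0.96 (Spearman rho 0.91, and r of 0.87 without the 2 clones farthest from the median). Slc3a2 had an r of 0.92 with Slc7a1 and 0.87 with Slc7a11, and Slc7a7 had an r of 0.94 with Slc7a11 and 0.93 with Slc7a1. Without the 2 farthest clones these were 0.74, 0.72, 0.83 and 0.80, in the same order. Wildtype clone 2D was the highest of its genotype for all 5 of these genes, and knockout clone 3I was the highest of its genotype for Slc3a2, Slc7a5, Slc7a11 and Slc7a1. Clones share library and depth across genes, and these values describe 12 clones without a test.

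Slc7a8 ran opposite to the rest. Its r was -0.71 with Slc3a2, -0.76 with Slc7a5, -0.84 with Slc7a1, -0.85 with Slc7a11 and -0.87 with Slc7a7, and it stayed between -0.65 and -0.91 without the 2 farthest clones. The sign was the same inside each genotype, for example -0.89 with Slc7a11 over the 6 Taz knockout clones and -0.85 over the 6 wildtype clones. Wildtype clones 1A and 2D had the lowest Slc7a8 and the highest Slc7a11 of their genotype, and knockout clone 3H had the lowest Slc7a8 of its genotype. So Slc7a8 and Slc7a11 were both higher on average in Taz knockout, yet a clone with more of the one than its genotype mean had less of the other. Over all 12 clones, Slc7a6 had an r between -0.087 and 0.23 with every other member. Inside the genotypes its r was less even. With Slc3a2 it was 0.66 over the 6 Taz knockout clones and -0.16 over the 6 wildtype clones. With Slc7a11 it was 0.58 in Taz knockout and -0.38 in wildtype. Without the 2 farthest clones its r was 0.53 with Slc3a2 and between -0.24 and 0.065 with the other members.

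**Figure D4:**
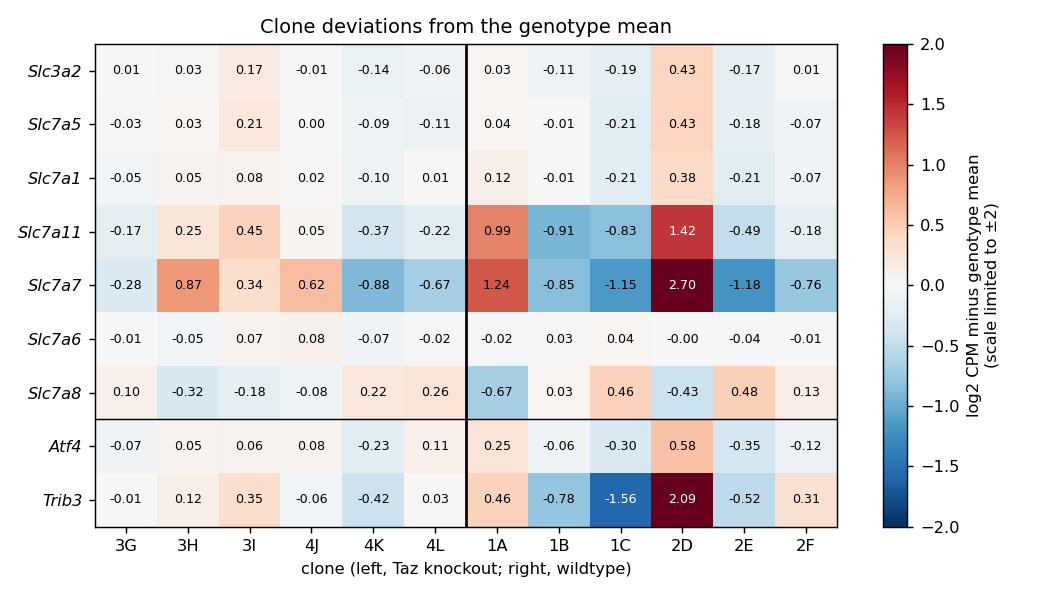
Deviation of each clone from its genotype mean in log2 CPM (color and printed values) for the 7 transporters and the regulators Atf4 and Trib3, with Taz knockout clones left of the black line and wildtype clones right of it. Wildtype clones 1A and 2D are positive for Slc7a11 (0.99 and 1.42) and negative for Slc7a8 (-0.67 and -0.43).

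Markers of other blood cells moved with some of these clone differences. The summed mast and basophil markers, of which 7 of 8 genes passed 3 counts in some clone and Fcer1a in none, lay between 2793 and 5558 CPM in Taz knockout and between 1581 and 4808 CPM in wildtype. That sum had an r of 0.82 with Slc7a8 (rho 0.68, and 0.77 without the 2 farthest clones). It had -0.87 with Slc7a7 and -0.83 with Slc7a1, which were -0.75 and -0.74 without the 2 farthest clones. All 10 mature neutrophil markers passed 3 counts in some clone, with sums from 15.9 to 145 CPM in Taz knockout and from 22.1 to 1538 CPM in wildtype. That sum had an r of 0.77 with Slc7a7, which was 0.37 without the 2 farthest clones. Eosinophil markers, with all 5 genes above 3 counts in some clone, summed to between 10.6 and 34.1 CPM in Taz knockout and to between 11.4 and 166 CPM in wildtype, where 2D (166 CPM) and 1A (86.5 CPM) were highest. That sum had an r of 0.87 with Slc7a1 and 0.83 with Slc7a11, which were 0.64 and 0.46 without the 2 farthest clones. Dendritic markers (Cd209a and Batf3 never above 3 counts) summed to between 79.4 and 218 CPM in Taz knockout and to between 66.9 and 294 CPM in wildtype, with an r of -0.81 with Slc7a1 and -0.76 without the 2 farthest clones. The progenitor marker sum had an r of 0.74 with Slc7a8 and -0.79 with Slc7a11, which were 0.45 and -0.49 without the 2 farthest clones, 1A and 2D. Stromal markers had an r of -0.89 with Slc7a11, megakaryocyte markers of -0.88 with Slc7a7 and monocyte and macrophage markers of -0.79 with Slc7a7, which were -0.77, -0.75 and -0.53 without the 2 farthest clones. These values were picked for their size among all marker lists and members, so they are high by selection. Other lists moved less with the members. The r lay between -0.43 and 0.53 for primary granule markers, between -0.31 and 0.14 for erythroid markers and between -0.089 and 0.22 for hepatocyte markers. The part of these markers in the transporter levels was not tested.

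For each transporter, the genes with the most similar clone-to-clone pattern among 9134 compared were taken by the same measure. Slc7a1 was followed most closely by Atf5 (r = 0.984), Atf4 (0.981) and the glycyl-tRNA synthetase gene Gars (0.977). By this r, the nearest to Slc3a2 were Phgdh (0.972), the first enzyme of serine synthesis, Jdp2 (0.954) and Eif4ebp1 (0.952), an inhibitor of cap-dependent translation that Atf4 is known to induce. Slc7a5 was nearest to Clic4 (0.955), the proline synthesis enzyme gene Aldh18a1 (0.938) and again Eif4ebp1 (0.938). Slc7a11 was nearest to the translation termination factor gene Etf1 (0.957), Fyttd1 (0.955) and Vps26b (0.936), and Slc7a7 to Pqlc1 (0.983), Riok1 (0.961) and Sssca1 (0.957). Slc7a8 was nearest to Hcst (0.942), the adaptor DAP10 of activating receptors, Chd6 (0.914) and Fam117a (0.912). Slc7a6 reached 0.890 with Suco, 0.889 with Pde10a and 0.887 with Trim44. All of these are r over 12 clones after the genotype means were subtracted, and the top of so many genes is high by selection. The order holds for Pearson's r: by Spearman's rho, Vps26b ranked 76 for Slc7a11, Pqlc1 57 for Slc7a7, Fam117a 45 for Slc7a8 and Atf4 22 for Slc7a1.

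Genes that work alongside the transporters were described by role, each list beside the share of all genes called (3.99% higher, 3.94% lower). Among the other Slc3, Slc7 and Slc43 genes, 2 of 12 had enough reads to be tested and neither passed. Slc43a1, a system L transporter that needs no heavy chain, averaged 21.4 ± 8.64 CPM in Taz knockout and 18.3 ± 5.32 CPM in wildtype (adjusted p = 0.694 in edgeR). Its relative Slc43a2 averaged 53.1 ± 3.31 CPM in Taz knockout and 59.5 ± 6.09 CPM in wildtype (adjusted p = 0.178 in edgeR, and under 0.05 before adjustment). Slc7a9, Slc7a10, Slc7a12 and Slc7a15 had no count in any clone, which allows at most between 0.109 and 0.158 CPM, for counting error only. Slc7a3, a cationic transporter like Slc7a1, was untested. Its highest value was 35.7 CPM in Taz knockout and 4.12 CPM in wildtype, and its medians were 0.179 and 0.059 CPM. Means were 7.65 ± 14.3 CPM in Taz knockout and 0.721 ± 1.66 CPM in wildtype (SD, n = 6 each). It was named for these values.

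A list of transporters of exchange substrates and of the lysosome had 9 tested genes and a median log2 fold change of -0.034. Of its 5 tested carriers of exchange substrates at the cell surface, 4 passed the test and were higher in Taz knockout, and Slc38a5 did not (adjusted p = 0.542 in edgeR). The 4 tested lysosomal genes (Pqlc2, Ctns, Slc38a9 and Slc36a1) did not pass, with log2 fold changes from -0.44 to -0.034 and adjusted p from 0.0518 to 0.836 in edgeR. Slc1a4 and Slc1a5, sodium-dependent carriers of small neutral amino acids and glutamine, averaged 77.4 ± 5.60 and 322 ± 24.7 CPM in Taz knockout, against 31.6 ± 8.56 and 213 ± 40.1 CPM in wildtype. Their log2 fold changes were 1.29 ± 0.15 and 0.60 ± 0.11 (SE), with adjusted p of 0.000646 and 0.00768 in edgeR, and neither overlapped between genotypes. Slc38a1 and Slc38a2, sodium-coupled glutamine and alanine carriers, had log2 fold changes of 0.18 and 0.31 (adjusted p = 0.0119 and 0.0144 in edgeR).

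Of 16 tested transcription regulators known to act on these genes, 5 passed the test and were higher in Taz knockout, and the list's median log2 fold change was 0.091. Atf4, which had the largest adjusted p of the 5 and is named for its likeness to Slc7a1, averaged 608 ± 51.7 CPM in Taz knockout and 409 ± 108 CPM in wildtype (log2 fold change 0.57 ± 0.15 SE, adjusted p = 0.0344 in edgeR). Trib3, a pseudokinase induced by Atf4, averaged 60.4 ± 10.2 CPM in Taz knockout and 7.74 ± 8.02 CPM in wildtype, and Ddit3 (CHOP) 24.7 ± 3.16 CPM in Taz knockout and 9.67 ± 1.97 CPM in wildtype. Cebpg, a dimer partner of Atf4, had a log2 fold change of 0.53 and Mafg, a partner of Nrf2, of 0.30. Nfe2l2, which encodes Nrf2 and was named after its values were seen, averaged 126 ± 9.31 CPM in Taz knockout and 122 ± 9.38 CPM in wildtype (adjusted p = 0.728 in edgeR). Over the clones, Atf4 had an r of 0.98 with Slc7a1, 0.88 with Slc3a2, 0.87 with Slc7a5 and Slc7a11 and -0.82 with Slc7a8. It also had 0.92 with Slc7a7, which was not called, and 0.15 with Slc7a6. Without the 2 farthest clones its r was 0.945 with Slc7a1, 0.81 with Slc7a7, 0.79 with Slc7a11, 0.65 with Slc3a2, 0.63 with Slc7a5 and -0.81 with Slc7a8. Atf4 was not the closest regulator for every member. Trib3 had an r of 0.93 with Slc3a2 and 0.90 with Slc7a11, both above those of Atf4. Its r was 0.90 with Slc7a1, 0.86 with Slc7a5, 0.85 with Slc7a7 and -0.70 with Slc7a8. Without the 2 farthest clones Trib3 had 0.82 with Slc3a2, 0.86 with Slc7a11, 0.63 with Slc7a1 and 0.52 with Slc7a5. Nfe2l2 had -0.37 with Slc7a11.

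Leucine and other amino acids brought in by system L are sensed by mTORC1, the kinase complex that couples nutrients to growth. Of 25 tested genes of this pathway, 1 was higher and 2 lower by edgeR, with a median log2 fold change of 0.0011. Sesn2, a leucine-binding inhibitor of the pathway, averaged 136 ± 11.7 CPM in Taz knockout and 48.0 ± 13.6 CPM in wildtype (log2 fold change 1.51 ± 0.17 SE, adjusted p = 0.000503 in edgeR). The lower genes were the lysosomal scaffold subunit Lamtor5 (-0.20) and the GATOR1 subunit Depdc5 (-0.22). Mlst8, a subunit of the kinase complex, had an adjusted p of 0.0553 in edgeR.

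Genes that use the imported amino acids showed a few large differences. Of 12 tested genes of cystine and glutathione use, 4 passed the test and were higher in Taz knockout, and the list's median log2 fold change was 0.14. Cth, which makes cysteine from cystathionine, averaged 104.5 ± 36.8 CPM in Taz knockout and 7.66 ± 10.1 CPM in wildtype (log2 fold change 3.77 ± 0.79 SE, adjusted p = 0.0148 in edgeR). Chac1, which breaks down glutathione, averaged 34.0 ± 5.15 CPM in Taz knockout and 9.43 ± 6.78 CPM in wildtype (adjusted p = 0.0148 in edgeR). Gclc, the catalytic subunit of the first enzyme of glutathione synthesis, differed by 0.21 on the log2 scale (adjusted p = 0.00359 in edgeR), and the peroxidase gene Gpx1 by 0.38 (adjusted p = 0.0221).

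Of 14 tested genes of branched chain and aromatic amino acid handling, 3 passed the test and were higher in Taz knockout, and the list's median log2 fold change was -0.011. Bcat1, the cytosolic aminotransferase of leucine, isoleucine and valine, averaged 88.1 ± 15.9 CPM in Taz knockout and 7.12 ± 8.90 CPM in wildtype (log2 fold change 3.63 ± 0.60 SE, adjusted p = 0.00459 in edgeR). The leucyl- and isoleucyl-tRNA synthetase genes Lars and Iars had log2 fold changes of 0.37 and 0.30. In arginine and polyamine metabolism 1 of 11 tested genes passed, the ornithine decarboxylase antizyme gene Oaz2, with a log2 fold change of 0.23 beside a list median of -0.036. Of 5 tested surface partners of Slc3a2, 1 passed, and it was lower in Taz knockout. That was the integrin Itgb3, at 47.0 ± 13.01 CPM in Taz knockout and 91.0 ± 25.7 CPM in wildtype (log2 fold change -0.95 ± 0.23 SE, adjusted p = 0.0256 in edgeR), and the list median was -0.020. Itgb3 is also 1 of the megakaryocyte markers used above, and the only 1 of 5 tested there that passed.

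**Figure D5:**
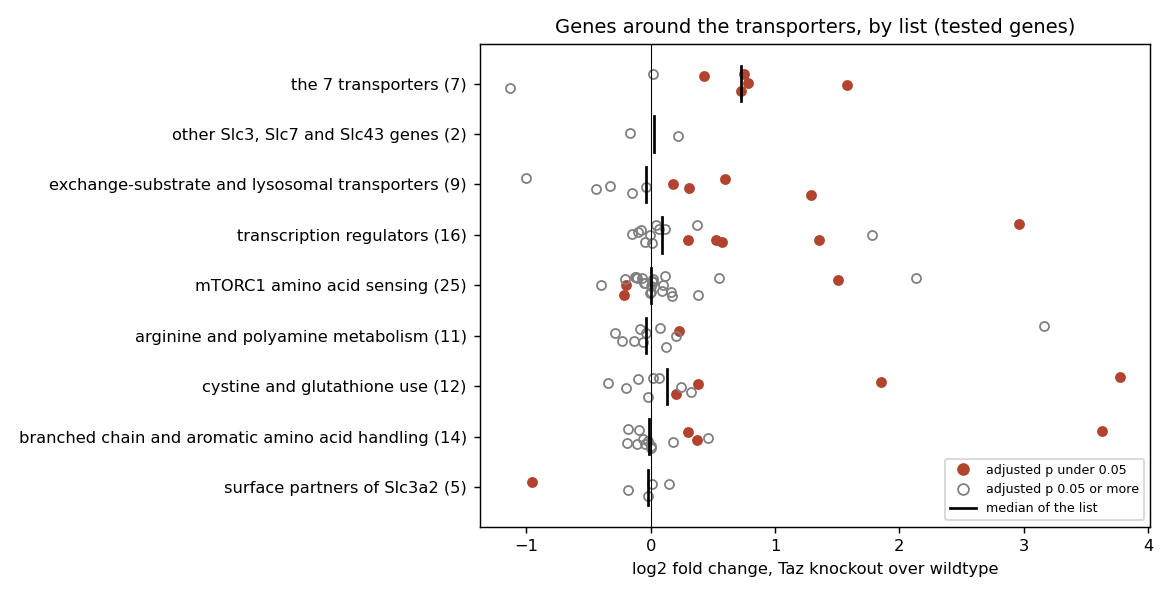
Log2 fold change, Taz knockout over wildtype (horizontal axis), of each tested gene of the 7 transporters and 8 lists around them, with the number tested in brackets, red where the adjusted p was under 0.05, and a bar at the list's median. The medians of the 8 lists lie between -0.036 and 0.14, while that of the transporters is 0.73, and single genes such as Bcat1 and Cth lie above 3.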

How the data were processed

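The deposited values were whole-number counts of reads per Ensembl gene, 1 file per clone. The submitters' processing notes name STAR, HTSeq, edgeR and the build mm9. The versions and the annotation release are not given in the sources used here. Per the file names, strand was ignored. The last 5 lines of each file are totals of reads without a gene and were not used (48.8% of records, 43.6% being reads aligned to more than 1 place). Of 37583 gene IDs, 32860 matched a symbol. Lengths came from GENCODE M21.

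Genotypes (6 Taz knockout and 6 wildtype clones) were compared with edgeR's quasi-likelihood test (version 4.0.16, R 4.3.3). Scaling was by TMM, low genes were removed by filterByExpr within genotypes, and p-values were adjusted by Benjamini-Hochberg over 11819 genes. CPM values are TMM-scaled, and log2 CPM used a prior count of 2. On simulated counts with 200 genes changed by a log2 fold change of 1 either way, 90.5% were recovered and 8.12% of calls were unchanged genes. The changed genes were picked among well expressed ones, and the simulated spread followed the trend over all genes, not each gene's own. Recovery of changes smaller than 1, as in most called members, or of low genes such as Slc7a7 was not tested. Alternatives were DESeq2 1.42.0, limma 3.58.1, other scalings, no filter, title numbers and leaving out clones. Intervals are 95%, and limits from 3 counts cover counting error only. Members and lists were chosen with earlier results of these data known. Named were all members, up to 4 genes per list with the smallest adjusted p, all tested relatives and the 3 most similar genes per member. Atf4 was named as 1 of the 3 most similar to Slc7a1, and others outside this rule are marked in the text or complete a count. Counts carry no molecular identifiers.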

Additional observations from a re-analysis of the deposited data

Results flagged for a closer look

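Wildtype clone 2D stood apart from the other 5 wildtype clones for 3 of the 7 transporters, by a gap to the nearest clone that was large for the range of its group. It had 369.98 CPM for Slc3a2, with a gap of 0.682 of the range of the 6 clones. For Slc7a5 it had 599.87 CPM and a gap of 0.654, and for Slc7a7 it had 7.71 CPM and a gap of 0.682. For normally spread values, chance alone sets a clone this far apart in about 1 of 20 groups. In all, 26 groups of 6 clones were looked at, and these were the 3 that stood apart. The groups are not independent, as the ratios reuse the same counts and the 3 genes vary together. Over the 6 wildtype clones, r was 0.97 for Slc3a2 with Slc7a5 and 0.93 for Slc7a7 with each of them. The 3 flags are thus not 3 separate observations. The same clone had the highest summed mature neutrophil markers, at 1538 CPM, and the lowest summed progenitor markers, at 3702 CPM.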

How the results depend on the processing

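The calls of Slc3a2, Slc7a5 and Slc7a1 held in all 22 alternatives over both genotypes, that of Slc7a11 in 12 and that of Slc7a8 in 11. Leaving out 1 clone at a time, 3 to 4 members were higher, with 294 to 558 genes higher and 272 to 535 lower, and log2 fold changes were 0.62 to 0.83 for Slc7a8 and 1.42 to 1.97 for Slc7a11. Without the filter on low counts, 3 members, 271 genes higher and 280 lower were called, with 0.72 for Slc7a8 (adjusted p = 0.0640 in edgeR) and 1.58 for Slc7a11 (0.0522). DESeq2 called 801 genes higher and 830 lower. Counts summed by title number gave 158 and 116, with 0.73 for Slc7a8 (adjusted p = 0.0605 in edgeR). Limma-voom with title number as a random block gave 1171 and 1125, at a consensus correlation of -0.169. Without 1A and 2D, chosen after seeing the data, Slc7a7 turned to 0.85. Between title numbers, groups of 3 left these below the threshold: 3 over 1, Slc7a8 0.64, Slc7a11 2.01 and Slc7a1 0.49. For 3 over 2, Slc7a5 0.75, Slc7a8 0.54, Slc7a11 1.54 and Slc7a1 0.41. For 4 over 1, Slc7a5 0.75, Slc7a8 0.90, Slc7a11 1.64 and Slc7a1 0.45, and Slc7a6 turned to -0.0042. For 4 over 2, Slc3a2 0.62, Slc7a5 0.62, Slc7a8 0.81, Slc7a11 1.17 and Slc7a1 0.36. Fewer clones or more genes tested lower the power of several of these; otherwise the cause was not tested. Other scalings moved the median of all genes by at most 0.0056 on the log2 scale. No paired analysis was possible because each title number belongs to 1 genotype. Depth limits Slc7a7, with as few as 9 counts in a library.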
